A study of Homo sapiens with 24 samples.

Results

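The miRNAs described here are 9 mature forms known as direct targets of NF-κB: hsa-miR-155-5p, hsa-miR-155-3p, hsa-miR-146a-5p, hsa-miR-146b-5p, hsa-miR-146b-3p, hsa-miR-21-5p, hsa-miR-21-3p, hsa-miR-9-5p and hsa-miR-9-3p. They were chosen by name from the 2656 mature miRNAs in the deposited table. Of the 9, 8 had counts and passed the filter on low values (a minimum of 1 CPM, which is 1 count per 1000000 counts of the library, in 4 or more libraries), which kept 905 miRNAs for testing. The other member, miR-155-3p, had a count of 0 in all 24 libraries.

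Small RNA was sequenced from OV90 cells, an established line of epithelial ovarian cancer, carrying an shRNA under doxycycline control. The 6 groups, with 4 replicates each, were adherent shNeg (negative control shRNA), adherent shRELA, adherent shRELB, spheroid shNeg, spheroid shRELA and spheroid shRELB. Cells of every group, the controls included, received 1 µg/ml doxycycline for 72 h. Adherent cells were kept in RPMI with fetal calf serum, whereas spheroids, which enrich for tumor-initiating cells, were kept on ultra-low attachment plastic in a defined medium with EGF and FGF. The culture comparison therefore carries the medium, the growth factors and the attachment surface together, and these cannot be told apart. The labels name the shNeg genotype wild type, and the titles were followed for the shRNA. How many shRNA sequences or clones stood for each gene, and whether replicates were separate cultures, is not given in the sources used here, so the tests measure the spread between libraries, which may be technical. Small RNA counts do not read the RELA and RELB transcripts, so knockdown was not checked in these libraries. The paper reports Western blots of RELA and RELB silencing in OV90 cells.

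NF-κB is a family of transcription factors that act as dimers. RELA is the main activating subunit of the canonical pathway, which inflammatory cytokines and microbial products switch on within minutes, and RELB is the activating subunit of the slower non-canonical pathway. Several miRNA genes carry κB sites and in turn act on the pathway. miR-155 is processed from the host transcript MIR155HG, is induced in activated macrophages and lymphocytes, and represses SOCS1 and INPP5D, which restrain immune signaling. miR-146a and miR-146b repress IRAK1 and TRAF6, adaptors upstream of NF-κB, and are regarded as negative feedback regulators. miR-21 represses PDCD4 and is abundant in many carcinomas. miR-9 has the NFKB1 transcript among its targets. The comparisons ask whether these miRNAs fell when RELA or RELB was depleted.

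The mature sequences are shown because the counts were assigned by them, and because the seed (bases 2 to 8, in capitals), which directs target choice, shows which members can act on the same transcripts. RefSeq on GRCh38.p14 held 8 of the 9.
miR-155-5p: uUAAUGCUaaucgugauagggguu
miR-155-3p: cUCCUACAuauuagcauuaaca
miR-146a-5p: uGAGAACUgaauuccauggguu
miR-146b-5p: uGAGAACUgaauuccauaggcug
miR-146b-3p: gCCCUGUGgacucaguucuggu
miR-21-5p: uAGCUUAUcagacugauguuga
miR-9-5p: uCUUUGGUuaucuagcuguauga
miR-9-3p: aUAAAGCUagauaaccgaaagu
The 5p arms of miR-146a and miR-146b share the seed GAGAACU and differ over the first 22 bases, counted from the 5′ end, by G18A and U21C. The other members each have a seed of their own within the set.

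The hairpins lie on 6 chromosomes of GRCh38. MIR155 (chr21:25573980-25574044, plus strand) lies in an exon of its host MIR155HG in GENCODE v44. MIR146A (chr5:160485352-160485450, plus strand) lies in an exon of the long non-coding RNA MIR3142HG. MIR146B (chr10:102436512-102436584, plus strand) has no annotated host. MIR21 (chr17:59841266-59841337, plus strand) overlaps an exon of VMP1, the gene of an autophagy protein. miR-9 comes from 3 hairpins with the same mature sequences, MIR9-1 (chr1:156420341-156420429, minus strand, in MIR9-1HG), MIR9-2 (chr5:88666853-88666939, minus strand, in LINC00461) and MIR9-3 (chr15:89368017-89368106, plus strand, in MIR9-3HG), and counts from the 3 cannot be told apart.

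Library totals were 3797175 to 8283549 counts in adherent culture and 959141 to 3580931 in spheroid culture, so that low values from spheroids rest on fewer counts. The members together took 6.66% to 10.8% of the counts in adherent libraries and 1.92% to 9.01% in spheroid libraries. Replicate 1 of spheroid shNeg stood apart, with counts for 432 miRNAs, where replicates 2 to 4 had counts for 813 to 885. It held the lowest member share, and some of the values that it moved are also given without it. Ratios of arms and ratios to miR-30e-5p are given only with it. All 7 epithelial miRNAs listed as markers had counts in every group, and their summed level was 2486 to 16338 CPM. Most of this sum was miR-200c-3p, at 1641 to 15662 CPM, and miR-205-5p, at 453 to 2622 CPM. The others were lower, with miR-141-3p at 26.4 to 286 CPM and miR-200b-3p at 0.733 to 40.6 CPM. Lowest were miR-203a-3p at 0 to 16.1, miR-200a-3p at 0.764 to 12.2 and miR-429 at 0 to 3.69 CPM. The 6 blood cell miRNAs summed to 7.63 to 50.9 CPM, with miR-150-5p at 0 to 48.3 CPM, miR-142-3p at 0 to 10.3, miR-223-3p at 0 to 8.07, miR-451a at 0 to 6.29, miR-144-3p at 0 to 1.07 and miR-142-5p at 0 to 0.330 CPM. The summed levels were 570 to 9282 CPM for both endothelial miRNAs (the miR-126 arms), 12.6 to 256 CPM for the smooth muscle and fibroblast miRNAs miR-143-3p and miR-145-5p, and 227 to 1166 CPM for the neural miRNAs, of which miR-124-3p was at 0 to 4.21 CPM.

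The members spanned a wide range of levels. On the CPM scale, after TMM scaling (trimmed mean of M-values, which sets library sizes from the bulk of the miRNAs), miR-21-5p averaged 34423 over the 24 libraries and ranked 7 among all miRNAs in the table. miR-146a-5p averaged 31280 CPM and ranked 8. The averages of the others were 1070 CPM for miR-21-3p, 289.5 for miR-146b-5p, 148 for miR-9-5p, 42.6 for miR-155-5p, 26.6 for miR-146b-3p and 7.60 for miR-9-3p. The plot by library shows these levels group by group.

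**Figure D1:**
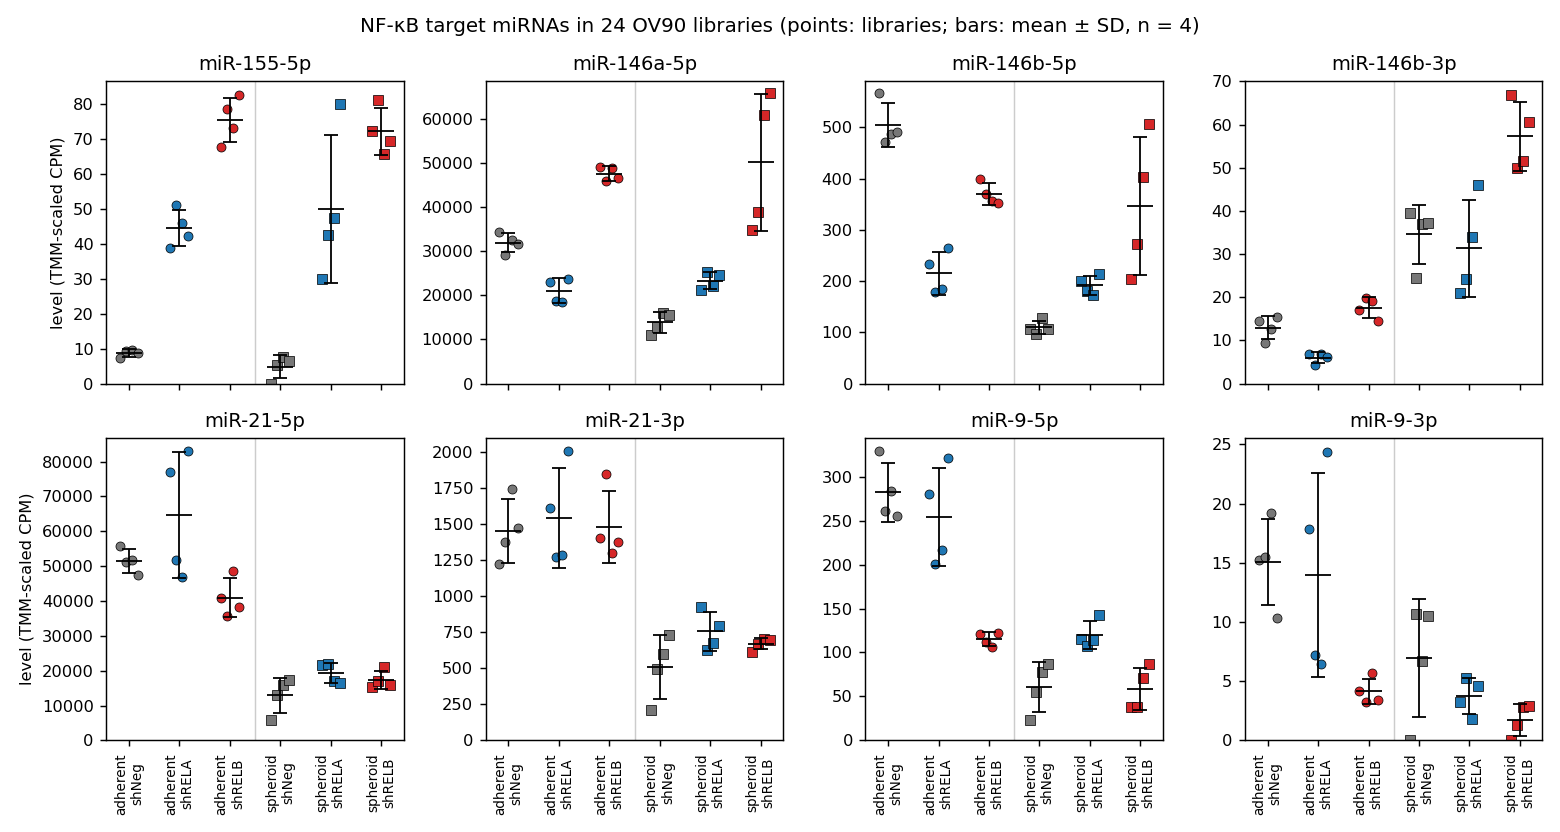
Level of the 8 detected members in each of the 24 libraries (vertical axes, TMM-scaled CPM from 0, a scale per panel) by culture and shRNA (horizontal axis; circles adherent, squares spheroid; bars mean ± SD, n = 4). miR-155-5p was at 0 to 9.68 CPM in the 8 shNeg libraries and at 30.0 to 82.4 CPM in the 16 knockdown libraries, whereas both miR-21 arms separated by culture.

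miR-155-5p rose when either subunit was depleted, in both cultures, and these were the largest changes of any member against shNeg. In adherent shNeg cells it was at 7.30, 9.33, 9.68 and 8.77 CPM in replicates 1 to 4. In adherent shRELA cells it was at 38.8, 50.9, 45.9 and 42.2 CPM, and in adherent shRELB cells at 67.6, 78.4, 73.1 and 82.4 CPM. The 3 adherent groups did not overlap. Against adherent shNeg it rose 5.06-fold with RELA depleted (log2 fold change 2.34 ± 0.32, SE, n = 4 against 4) and 8.58-fold with RELB depleted (3.10 ± 0.32), and edgeR gave a false discovery rate (FDR) of 9.76e-07 for RELA and 7.84e-09 for RELB. In bulk libraries a change in a few cells and a change in the RNA of every cell cannot be told apart.

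In spheroid shNeg cells miR-155-5p was at 0, 5.35, 7.70 and 6.32 CPM, from 0 to 15 counts. The library at 0 is the one that stood apart. Spheroid shRELA cells held 30.0, 42.5, 47.4 and 79.8 CPM and spheroid shRELB cells 72.2, 81.1, 65.6 and 69.4 CPM, all above every spheroid shNeg library. The rise on the log2 scale was 3.31 ± 0.38 for RELA (FDR 3.42e-08), and 2.93 without spheroid shNeg replicate 1. For RELB it was 3.84 ± 0.38 (FDR 9.14e-10), and 3.45 without that library. Both knockdowns in a culture were compared with the same 4 shNeg libraries and are not independent of each other.

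Ranked by mean, miR-155-5p was lowest in spheroid shNeg (4.84 ± 3.37 CPM, SD, n = 4) and adherent shNeg (8.77 ± 1.05), intermediate in adherent shRELA (44.5 ± 5.20) and spheroid shRELA (49.9 ± 21.2), and highest in spheroid shRELB (72.1 ± 6.62) and adherent shRELB (75.4 ± 6.41). The neighbours within each of these pairs differ by culture and did not pass the test (FDR 0.0801, 0.650 and 0.872). RELB against RELA knockdown gave a log2 difference of 0.76 ± 0.29 in adherent cells (FDR 0.0547, 0.00268 without spheroid shNeg replicate 1, which feeds the shared estimate of the spread) and 0.52 ± 0.30 in spheroids (FDR 0.247, 95% interval -0.061 to 1.11). The rise against shNeg was not called different between cultures, with a log2 difference of 0.97 ± 0.49 for RELA (FDR 0.191) and 0.74 ± 0.49 for RELB (FDR 0.334), or 0.59 and 0.35 without spheroid shNeg replicate 1. Blood cells also express miR-155. Their markers summed to 16.0 to 19.4 CPM in adherent shNeg, 7.63 to 11.6 in adherent shRELA and 9.42 to 15.0 in adherent shRELB, of which miR-150-5p averaged 7.90, 4.06 and 10.4 CPM. In spheroids they summed to 18.3 to 22.5 CPM in shNeg, 9.40 to 50.9 in shRELA and 10.3 to 27.4 in shRELB, of which miR-150-5p averaged 11.3, 20.3 and 13.9 CPM. The part of blood cell miRNA in the rise of miR-155-5p was not tested in either culture.

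The opposite arm, miR-155-3p, had no count in any library. Up to 3 counts could be missed by chance, a limit that corresponds to 0.495 to 0.800 CPM for adherent and 0.860 to 2.29 CPM for spheroid culture. It was not detectable at this depth in the groups where the 5p arm reached 427 counts.

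With RELA depleted, miR-146a-5p was lower in adherent cells and higher in spheroids. It was at 34252, 29056, 32466 and 31708 CPM in adherent shNeg and at 23083, 18628, 18467 and 23788 CPM in adherent shRELA. The groups did not overlap, and the knockdown libraries were the lower ones. The difference was -0.60 ± 0.17 on the log2 scale with an FDR of 0.0190, which misses the threshold used here, an FDR below 0.01 and a fold change above 2. Without spheroid shNeg replicate 1 it was -0.61 with an FDR of 0.00323, still under the fold threshold. In spheroid shNeg it was at 11077, 12808, 15896 and 15556 CPM, and in spheroid shRELA at 21204, 25288, 22197 and 24499 CPM. Here the knockdown libraries were all higher, by 0.75 ± 0.17 on the log2 scale (1.68-fold), with an FDR of 0.000987 but a fold change under 2.

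Depletion of RELB went with higher miR-146a-5p in both cultures. Adherent shRELB libraries held 49072, 45881, 48893 and 46483 CPM, all above adherent shNeg, by 0.58 ± 0.17 on the log2 scale (FDR 0.0190, 1.49-fold, not called). This adherent rise had an FDR of 0.00389 without spheroid shNeg replicate 1, still under the fold threshold. Spheroid shRELB libraries held 34833, 38946, 60836 and 65808 CPM, all above spheroid shNeg, by 1.86 ± 0.17 (FDR 3.81e-10, 3.62-fold). The spheroid rise passed the threshold, and was 1.76 without spheroid shNeg replicate 1. Between the knockdowns, miR-146a-5p was 2.27-fold higher under shRELB than under shRELA in adherent cells (FDR 2.49e-06) and 2.15-fold higher in spheroids (FDR 1.31e-05), with no overlap in either culture. The spheroid difference was 1.10 on the log2 scale and 0.93, under the fold threshold, without spheroid shRELB replicate 4.

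miR-146b-5p, which has the same seed, was the member that fell most clearly with RELA in adherent cells. It was at 567, 471, 488 and 492 CPM in adherent shNeg and at 234, 178, 184 and 265 CPM in adherent shRELA. Every knockdown library lay far below the lowest control. The fall was 2.34-fold (-1.23 ± 0.21 on the log2 scale, FDR 5.77e-05). Adherent shRELB libraries lay in between, at 399, 371, 356 and 352 CPM, with a log2 fold change of -0.45 ± 0.21 against shNeg that did not pass (FDR 0.168).

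In spheroids depletion of either subunit went with higher levels. miR-146b-5p was at 107, 96.2, 128 and 106 CPM in spheroid shNeg, at 200.1, 179.6, 174 and 213 CPM in spheroid shRELA, and at 203, 273, 404 and 506 CPM in spheroid shRELB. Both knockdown groups lay wholly above the control. They differed from it by 0.81 ± 0.21 on the log2 scale for RELA (FDR 0.00426, 1.75-fold, under the fold threshold) and by 1.66 ± 0.22 for RELB (FDR 2.73e-07, 3.17-fold, called). The shRELB libraries were the most spread, with replicates 3 and 4 near the adherent shNeg level.

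The difference between cultures in the knockdown effect was tested directly for every member. It passed for miR-146a-5p and miR-146b-5p and for no other tested member. The effect of RELA depletion was higher in spheroids than in adherent cells by 1.35 ± 0.24 on the log2 scale for miR-146a-5p (FDR 0.000164) and by 2.04 ± 0.30 for miR-146b-5p (FDR 2.92e-05). Of all 905 miRNAs, 7.62% passed this test. For RELB depletion the difference was 1.28 ± 0.24 for miR-146a-5p (FDR 0.000315) and 2.11 ± 0.30 for miR-146b-5p (FDR 1.27e-05), against 8.51% of all miRNAs. For miR-146a-5p the RELB value was 0.86 with library totals in place of TMM and 1.00 with a stricter filter, both under the fold threshold.

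The balance of the pair also moved. The CPM of miR-146a-5p per CPM of miR-146b-5p was 60.4 to 66.5 in adherent shNeg, 89.7 to 105 in adherent shRELA and 123 to 137 in adherent shRELB. These 3 ranges did not overlap. In spheroids the ranges were 103 to 147 in shNeg, 106 to 141 in shRELA and 129.9 to 171 in shRELB, and overlapped. The other arm of the miR-146a hairpin, miR-146a-3p, averaged 1.34 CPM and was called in none of the 4 knockdown comparisons.

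miR-146b-3p, from the same hairpin as miR-146b-5p, did not follow the 5p arm across cultures. It was at 14.6, 9.33, 12.6 and 15.3 CPM in adherent shNeg, at 6.94, 4.20, 6.86 and 6.12 in adherent shRELA and at 17.1, 19.9, 19.0 and 14.5 in adherent shRELB. The shRELA libraries lay below all others. For RELA it fell by 2.15-fold, a log2 fold change of -1.10 ± 0.28 (FDR 0.00858). This call was lost without the low-count filter (FDR 0.0174), in limma (FDR 0.0140) and with any 1 of 11 of the 24 libraries left out (highest FDR 0.0457, without adherent shRELA replicate 2). It held without spheroid shNeg replicate 1 (FDR 0.00122). For RELB the log2 fold change was 0.44 ± 0.27 (FDR 0.330). In spheroids miR-146b-3p was at 39.6, 24.4, 36.9 and 37.2 CPM in shNeg, 21.1, 24.2, 34.0 and 46.0 in shRELA and 67.0, 49.9, 51.6 and 60.5 in shRELB. The shRELB libraries were the highest of all 24, by 0.72 ± 0.27 against spheroid shNeg (FDR 0.0431, not called), and adherent shRELB exceeded adherent shRELA by 1.54 ± 0.28 (FDR 7.49e-05).

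The MIR146B hairpin (73 bases, RefSeq, GRCh38.p14) is shown with both arms in capitals, because its arms moved apart between cultures.
MIR146B: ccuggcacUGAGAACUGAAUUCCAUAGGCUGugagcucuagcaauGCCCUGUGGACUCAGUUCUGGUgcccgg
The 5p arm, nearer the 5′ end, is the one usually loaded as the guide strand. Counts of the 5p arm per count of the 3p arm, pooled over the 4 libraries, were 38.2 in adherent shNeg, 35.9 in adherent shRELA and 21.1 in adherent shRELB, against 3.19, 5.97 and 6.41 in the spheroid groups in the same order. The log2 ratio was lower in spheroid than in adherent shNeg by 3.63 (from 5.29 ± 0.26 to 1.67 ± 0.25, SD, n = 4; two-sided exact permutation p = 0.0286, the smallest that 4 against 4 allows, and 0.0929 after Benjamini-Hochberg adjustment over 13 tests of arm ratios). It was also lower by 0.90 with RELB depleted in adherent cells and higher by 1.00 with RELA depleted in spheroids, each with the same exact p of 0.0286 and adjusted value of 0.0929. For RELB in spheroids it was higher by 0.85 (exact p = 0.0857). Library depth differs between the cultures, and so does the GC content of what was recovered: over the 795 of 905 tested miRNAs with a RefSeq sequence, which share the same libraries and fit, GC content and the spheroid minus adherent log2 difference under shNeg correlated with a Spearman rho of 0.576. miR-146b-3p, at 59.1% GC, is the only printed member above the median of 54.5%, and miR-146b-5p is at 43.5%. The part of GC content in the arm ratio was not tested.

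**Figure D2:**
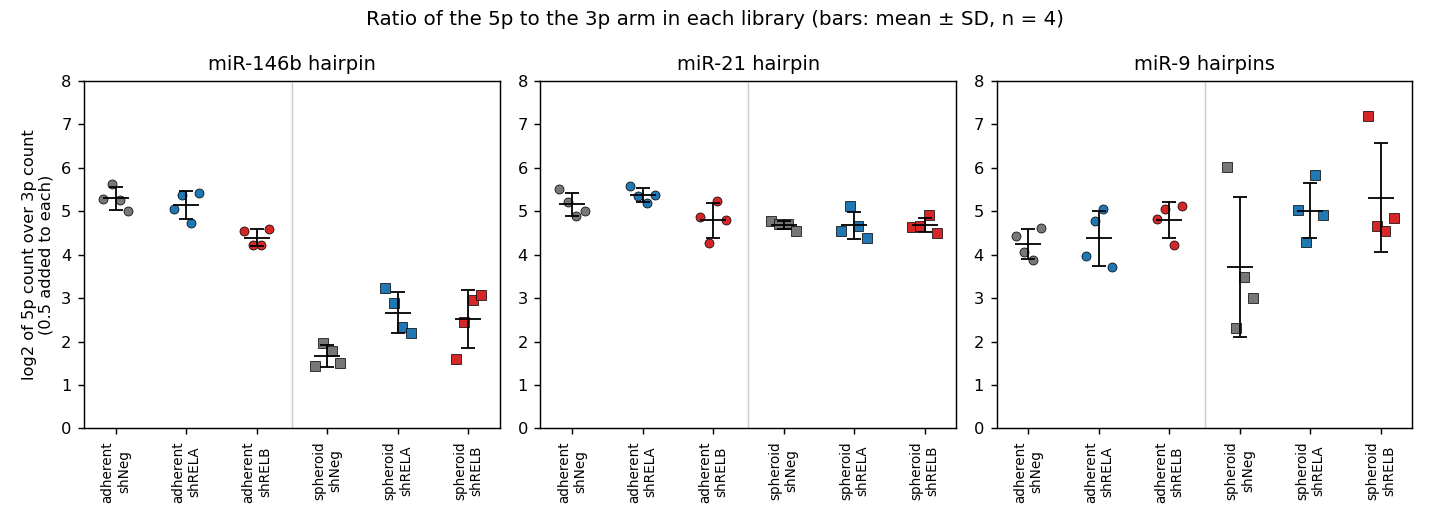
Log2 of the 5p count over the 3p count of the miR-146b, miR-21 and miR-9 hairpins in each library (vertical axis, 0.5 added to each count) by group (horizontal axis; circles adherent, squares spheroid; bars mean ± SD, n = 4). The miR-146b ratio was 5.29 in adherent and 1.67 in spheroid shNeg, while the miR-21 ratio lay between 4.67 and 5.37 in all 6 group means.

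Neither miR-21 arm was called in any knockdown comparison. miR-21-5p was at 55736, 51055, 51751 and 47495 CPM in adherent shNeg, at 76969, 51752, 46761 and 82924 in adherent shRELA and at 40865, 35756, 48726 and 38220.0 in adherent shRELB. Replicates 1 and 4 of adherent shRELA were the highest of all libraries, and of the other 2, one lay within the range of the control and one just under it. The difference from shNeg was 0.33 ± 0.22 on the log2 scale for RELA (FDR 0.469, 95% interval -0.10 to 0.76) and -0.33 ± 0.22 for RELB (FDR 0.372, 95% interval -0.76 to 0.10). In spheroids miR-21-5p was at 5714, 12954, 15768 and 17240.4 CPM in shNeg, at 21528, 21973, 17027 and 16526 in shRELA and at 15377, 17089, 21085 and 15867 in shRELB. The lowest value, in the library that stood apart, lies well under the rest. The spheroid log2 fold change was 0.58 ± 0.22 for RELA (FDR 0.0476) and 0.43 ± 0.22 for RELB (FDR 0.153), and 0.33 and 0.18 without that library. Replicates 1 and 4 of adherent shRELA also lay above replicates 2 and 3 for miR-21-3p, both miR-9 arms, miR-146a-5p and miR-146b-5p. They did not for miR-155-5p or miR-146b-3p.

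miR-21-3p, the less abundant arm, was at 1223 to 1746 CPM in adherent shNeg, 1274 to 2009.6 in adherent shRELA and 1299.7 to 1851 in adherent shRELB, and at 208 to 734, 629.8 to 928 and 615 to 704 CPM in the spheroid groups in the same order. All these groups overlapped within a culture. Its knockdown difference on the log2 scale was 0.089 for RELA and 0.028 for RELB in adherent culture, where the sign flips with other scaling or filter settings, and 0.57 and 0.40 in spheroids (FDR 0.0707 to 0.981), where it was 0.31 and 0.14 without spheroid shNeg replicate 1. The arm ratio of miR-21 was lower in spheroid than in adherent shNeg by 0.47 on the log2 scale (exact permutation p = 0.0286, adjusted 0.0929) and differed by less than 0.4 in each knockdown comparison.

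miR-9-5p fell with RELB depleted in adherent cells. It was at 329, 261, 284 and 255 CPM in adherent shNeg, at 279.8, 201, 217 and 321 in adherent shRELA and at 121, 112, 106 and 122 in adherent shRELB. The shRELB libraries lay below all 8 others, and the shRELA libraries overlapped the control. The difference from shNeg was -1.29 ± 0.27 on the log2 scale for RELB (FDR 0.000635, 2.44-fold lower, called) and -0.15 ± 0.26 for RELA (FDR 0.818), and the knockdowns differed by -1.14 ± 0.27, RELB minus RELA (FDR 0.00203, but 0.0150 with library totals, 0.0147 without adherent shRELA replicate 1 and 0.0108 without its replicate 4). Without spheroid shNeg replicate 1 the difference between the knockdowns had an FDR of 8.54e-06. In spheroids miR-9-5p was at 23.5, 55.0, 78.0 and 86.3 CPM in shNeg, at 115, 107, 114 and 143 in shRELA and at 38.5, 37.9, 70.7 and 86.3 in shRELB. Here the shRELA libraries were above all others, by 0.97 ± 0.28 against shNeg (FDR 0.00806, 1.96-fold, just under the fold threshold), or 0.71 with an FDR of 0.0168 without spheroid shNeg replicate 1. The shRELB libraries overlapped the control (log2 fold change -0.058 ± 0.28, or -0.32 without that library). RELB minus RELA was -1.03 ± 0.28 (FDR 0.00865), a call that was lost with library totals (FDR 0.0184), in limma (FDR 0.0102) and with any 1 of 13 of the 24 libraries left out (highest FDR 0.0395, without spheroid shRELB replicate 1). It held without spheroid shNeg replicate 1 (FDR 0.000123).

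miR-9-3p was the rarest member with counts. It was at 15.3, 15.5, 19.2 and 10.3 CPM in adherent shNeg, 17.8, 7.25, 6.48 and 24.3 in adherent shRELA and 4.18, 3.27, 5.65 and 3.42 in adherent shRELB. As for the 5p arm, the shRELB libraries were below all others. The log2 fold change for RELB was -1.85 ± 0.50 with an FDR of 0.0103, which just misses the threshold, and 0.000141 without spheroid shNeg replicate 1. It was called without the low-count filter (FDR 0.000233), in DESeq2 (0.00161), in the likelihood ratio test (0.00147) and with only the groups compared in the fit (2.79e-06), but not in limma (0.0670), with other scalings or with the replicate block. In spheroids miR-9-3p was at 0, 10.7, 6.67 and 10.5 CPM in shNeg, 3.28, 5.25, 1.79 and 4.56 in shRELA and 0, 1.33, 2.79 and 2.87 in shRELB. The spheroid shNeg library at 0 is again the one that stood apart, and with it the groups overlap. The log2 fold change for RELB was -1.90 ± 0.65 (FDR 0.0287) with that library and -2.28 (FDR 0.00108, called) without it, and for RELA it was -0.90 ± 0.61 (FDR 0.282) and -1.29 (FDR 0.0558). With all libraries the RELB value was called without the low-count filter (FDR 0.00585), in DESeq2 (0.00312) and in the likelihood ratio test (0.00567), and reached an FDR of 0.245 with only the groups compared.

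Counted together, the members did not fall as a set. With RELA depleted in adherent cells, 1 of 8 rose (miR-155-5p) and 2 fell (both miR-146b arms), where 1.1% of all 905 miRNAs tested rose and 2.65% fell. With RELB depleted in adherent cells, 1 rose (miR-155-5p) and 1 fell (miR-9-5p), where 3.54% of all rose and 3.54% fell. In spheroids 1 rose with RELA depleted (miR-155-5p) and 0 fell, where 7.51% of all rose and 7.62% fell. With RELB depleted in spheroids 3 rose (miR-155-5p, miR-146a-5p and miR-146b-5p) and 0 fell, where 7.29% of all rose and 6.08% fell. The median log2 fold change of the 8 members was -0.13, -0.15, 0.66 and 0.58 in these 4 comparisons, beside 0.089, 0.043, 0.094 and 0.16 for all miRNAs tested. The groups did not overlap for 4, 5, 4 and 4 of the 8 members, beside 20.7%, 33.1%, 22.5% and 17.3% of all miRNAs.

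**Figure D3:**
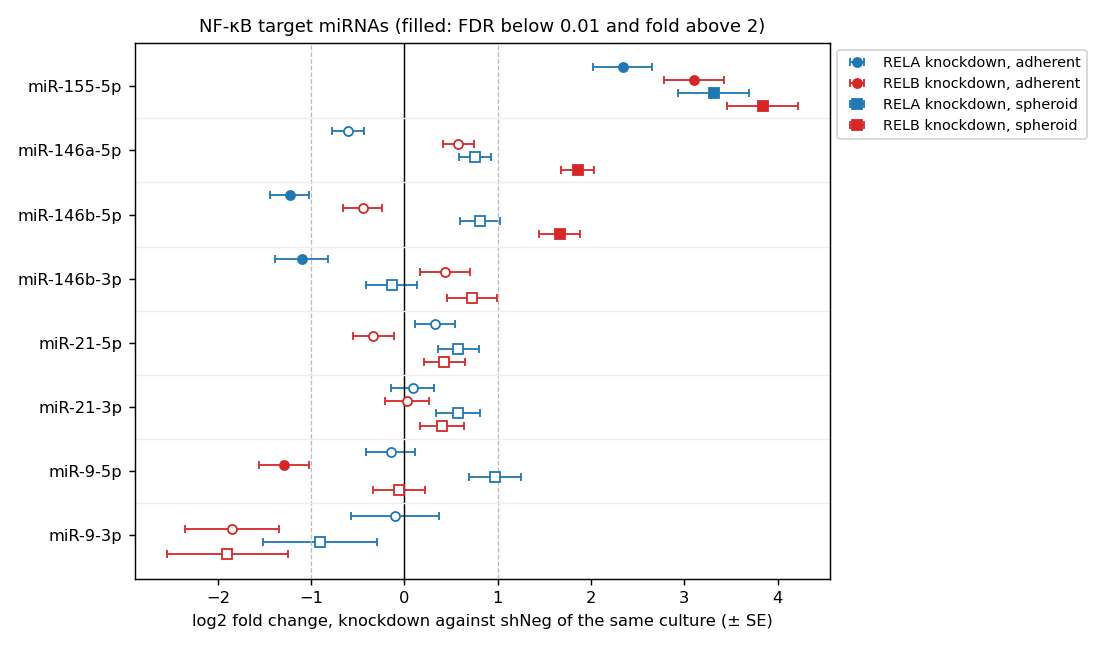
Log2 fold change of each member against shNeg of the same culture (horizontal axis, ± SE; dashed lines at a fold change of 2) for RELA (blue) and RELB (red) depletion in adherent (circles) and spheroid (squares) culture; filled symbols passed an FDR below 0.01 and a fold change above 2. miR-155-5p lay at 2.34 to 3.84 in all 4 comparisons, and miR-146b-5p lay at -1.23 and -0.45 in adherent cells but at 0.81 and 1.66 in spheroids.

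Measured against miR-30e-5p, the miRNA the study used as its reference in PCR, the 5p arms of miR-155 and miR-146 kept these directions. miR-30e-5p itself was called in none of the 4 knockdown comparisons. The log2 ratio of miR-155-5p to miR-30e-5p was higher by 1.93 and 3.22 in adherent cells and by 3.64 and 4.21 in spheroids (RELA before RELB). That of miR-146a-5p was -1.01, 0.71, 0.55 and 1.55, and that of miR-146b-5p -1.64, -0.32, 0.59 and 1.32, in the same order. Each of these 12 differences had an exact permutation p of 0.0286, the smallest possible, and 0.0497 after adjustment over 40 ratios. The other members kept their signs, except miR-21-5p (-0.11) and miR-21-3p (-0.32) with RELA depleted in adherent cells. Some of their differences not called by edgeR also reached this exact permutation p. These were miR-146b-3p (0.58) and miR-9-3p (-1.71) for RELB and miR-9-5p (-0.57) for RELA in adherent cells. In spheroids they were miR-21-5p (0.46) and miR-9-5p (0.91) for RELA. The spheroid ratios all include spheroid shNeg replicate 1, the library that stood apart. In spheroid shNeg the log2 ratio was -6.87 ± 1.81 (SD) for miR-155-5p, 4.97 ± 0.42 for miR-21-5p and -2.79 ± 0.52 for miR-9-5p. For miR-155-5p that library had a count of 0, so the size of the spheroid rise in this ratio depends on it.

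Between cultures, under shNeg, 1 of the 8 members was higher in spheroids and 5 were lower, where 21.3% of all miRNAs tested were called higher and 20.9% lower. The log2 difference, spheroid minus adherent, was -1.20 ± 0.17 for miR-146a-5p, -2.20 ± 0.22 for miR-146b-5p, -1.51 ± 0.24 for miR-21-3p and -2.21 ± 0.28 for miR-9-5p, and 1.41 ± 0.28 for miR-146b-3p, with an FDR of at most 5.2e-05. miR-21-5p was 3.99-fold lower (FDR 3.92e-09). miR-155-5p (-0.80 ± 0.40, FDR 0.0801) and miR-9-3p (-1.11 ± 0.53, FDR 0.0731) did not pass. Without spheroid shNeg replicate 1, miR-146a-5p, miR-146b-5p, miR-21-5p, miR-21-3p and miR-9-5p were at -1.11, -2.19, -1.75, -1.25 and -1.94, and miR-155-5p and miR-9-3p at -0.41 and -0.72. The call of miR-146a-5p ended, with a fold change under 2, with library totals (-0.76), with a mean of at least 10 CPM (-0.83) and with only the groups compared in the fit (-0.93). The median of all miRNAs tested was -0.26 in this comparison with TMM and 0.17 with library totals, so levels between cultures are relative to the scaling. miR-30e-5p itself was lower in spheroids by 1.69, and against it miR-146a-5p was higher in spheroids by 0.50 (exact permutation p = 0.0286, adjusted 0.0497), the opposite of its TMM direction, and miR-21-3p by 0.075 (exact permutation p = 0.857). miR-155-5p also changed sign against it, to 0.27 (exact permutation p = 0.857). Its log2 ratio was -6.87 ± 1.81 (SD) in spheroid shNeg and -7.14 ± 0.15 in adherent shNeg. The wide spheroid spread includes spheroid shNeg replicate 1, with a count of 0, so this value does not show that the cultures were alike. The differences of miR-146b-5p (-0.49, exact permutation p = 0.0571), miR-21-5p (-0.39) and miR-9-5p (-0.64, both with an exact permutation p of 0.0286, adjusted 0.0497) were smaller than with TMM.

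With TMM scaling and a subunit depleted, the culture difference of the 5p arms of miR-155 and miR-146 was small. Under shRELA the spheroid minus adherent log2 difference was 0.17 ± 0.30 for miR-155-5p, 0.15 ± 0.17 for miR-146a-5p and -0.17 ± 0.21 for miR-146b-5p, and under shRELB -0.063 ± 0.29, 0.075 ± 0.17 and -0.091 ± 0.21 (FDR 0.478 to 0.872). Each of these 6 values changes sign under some other scaling, filter or set of libraries. Against miR-30e-5p, not tested for culture under a knockdown, the mean log2 ratios were all higher in spheroids. Under shRELA they were -5.21 adherent and -3.23 spheroid for miR-155-5p, 3.67 and 5.72 for miR-146a-5p, and -2.95 and -1.20 for miR-146b-5p. Under shRELB they were -3.92 and -2.66, 5.38 and 6.73, and -1.63 and -0.48, in the same order. Under shRELA, 1 of 8 members was called higher (miR-146b-3p, 2.37 ± 0.29) and 4 lower (miR-21-5p, -1.75 ± 0.23; miR-21-3p, -1.03 ± 0.24; miR-9-5p, -1.09 ± 0.27; miR-9-3p, -1.91 ± 0.55), where 16.8% of all were higher and 15.8% lower. Under shRELB, miR-146b-3p was called higher (1.70 ± 0.27) and both miR-21 arms lower (-1.24 ± 0.22 and -1.14 ± 0.24), where 13.6% of all were higher and 11.4% lower. The calls under shRELA were the least stable: without adherent shRELA replicate 4, 2 of the 5 remained.

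RELB against RELA depletion was called for 3 of 8 members in adherent cells, namely miR-146a-5p and miR-146b-3p higher and miR-9-5p lower under shRELB, where 6.63% of all were called higher and 4.31% lower. It was called for 2 of 8 in spheroids, namely miR-146a-5p higher and miR-9-5p lower, where 3.87% of all were called higher and 2.76% lower. miR-146b-5p was also higher under shRELB than under shRELA, by 0.78 ± 0.21 and 0.86 ± 0.21, with an FDR of 0.00576 and 0.00374 but under a fold change of 2.

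The promoter of the miR-146a host is shown because it holds a κB element, the sequence NF-κB dimers bind, in the window from 250 bases before to 50 bases after the RefSeq start. It is MIR3142HG at chr5:160468001-160468300 (GRCh38.p14, plus strand), with the match to the κB consensus, GGGACTTTCC, in capitals, its first base at position -120 from the start.
MIR3142HG: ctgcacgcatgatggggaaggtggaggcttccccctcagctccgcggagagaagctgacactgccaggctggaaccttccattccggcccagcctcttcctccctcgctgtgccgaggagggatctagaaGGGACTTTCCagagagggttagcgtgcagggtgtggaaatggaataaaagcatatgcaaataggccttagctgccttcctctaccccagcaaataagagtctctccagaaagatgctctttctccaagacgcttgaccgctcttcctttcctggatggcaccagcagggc
Both strands were searched for the degenerate κB consensus, which was found in 3956 of 35116 RefSeq promoter windows (11.3%). The windows of MIR155HG and VMP1 held no match to the consensus, and that of MIR9-1HG held 1. Of the 4 windows of MIR9-3HG, 1 held a match, and the 3 windows of MIR9-2HG held 0. MIR146B, which has no annotated host, was not searched. The VMP1 window, chr17:59707404-59707703, lies far from MIR21 at chr17:59841266-59841337, so it does not speak for sites nearer that hairpin. These are matches of letters only, and binding was not measured.

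A second list held 19 other miRNAs reported under NF-κB control, all of which passed the filter. It was drawn up with earlier results of these data known, so its counts are a description. With RELA depleted, 0 rose and 4 fell in adherent cells, and the same 4 fell while 2 rose in spheroids, where 1.1% of all 905 rose and 2.65% fell in adherent cells and 7.51% rose and 7.62% fell in spheroids. Those that fell were miR-125b-5p (-5.05 and -3.45 on the log2 scale, adherent before spheroid), miR-452-5p (-3.32 and -4.04), miR-224-5p (-2.99 and -3.03) and miR-143-3p (-2.58 and -2.48). Those that rose in spheroids were miR-221-5p (1.45) and miR-34a-5p (1.40). With RELB depleted in adherent cells, miR-34a-5p rose (1.49), and miR-224-5p (-1.78), miR-23b-3p (-1.23), miR-29b-3p (-1.18) and miR-27b-3p (-1.05) fell, where 3.54% of all rose and 3.54% fell. In spheroids, miR-34a-5p (1.67) and miR-221-5p (1.41) rose with RELB depleted, and miR-224-5p (-2.61) and miR-452-5p (-1.97) fell, where 7.29% of all rose and 6.08% fell. miR-452-5p was at 39.6, 8.40, 6.16 and 8.42 CPM in spheroid shNeg, 54 of its 89 counts there being in the library that stood apart. Without that library, a setting chosen after seeing the data, it was -3.02 for RELA and -0.94 for RELB in spheroids (FDR 0.0922, no longer called), and its adherent RELB value of -1.32 passed (FDR 0.000182, against 0.0229). The median of the 19 was -0.50, -0.34, 0.57 and 0.63 in the order RELA and RELB adherent, RELA and RELB spheroid, beside 0.089, 0.043, 0.094 and 0.16 for all miRNAs tested, and the spheroid medians of the 19 were 0.30 and 0.40 without that library. miR-224 and miR-452 are neighbours in one gene, and miR-23b and miR-27b belong to one cluster, so these are not separate observations.

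**Figure D4:**
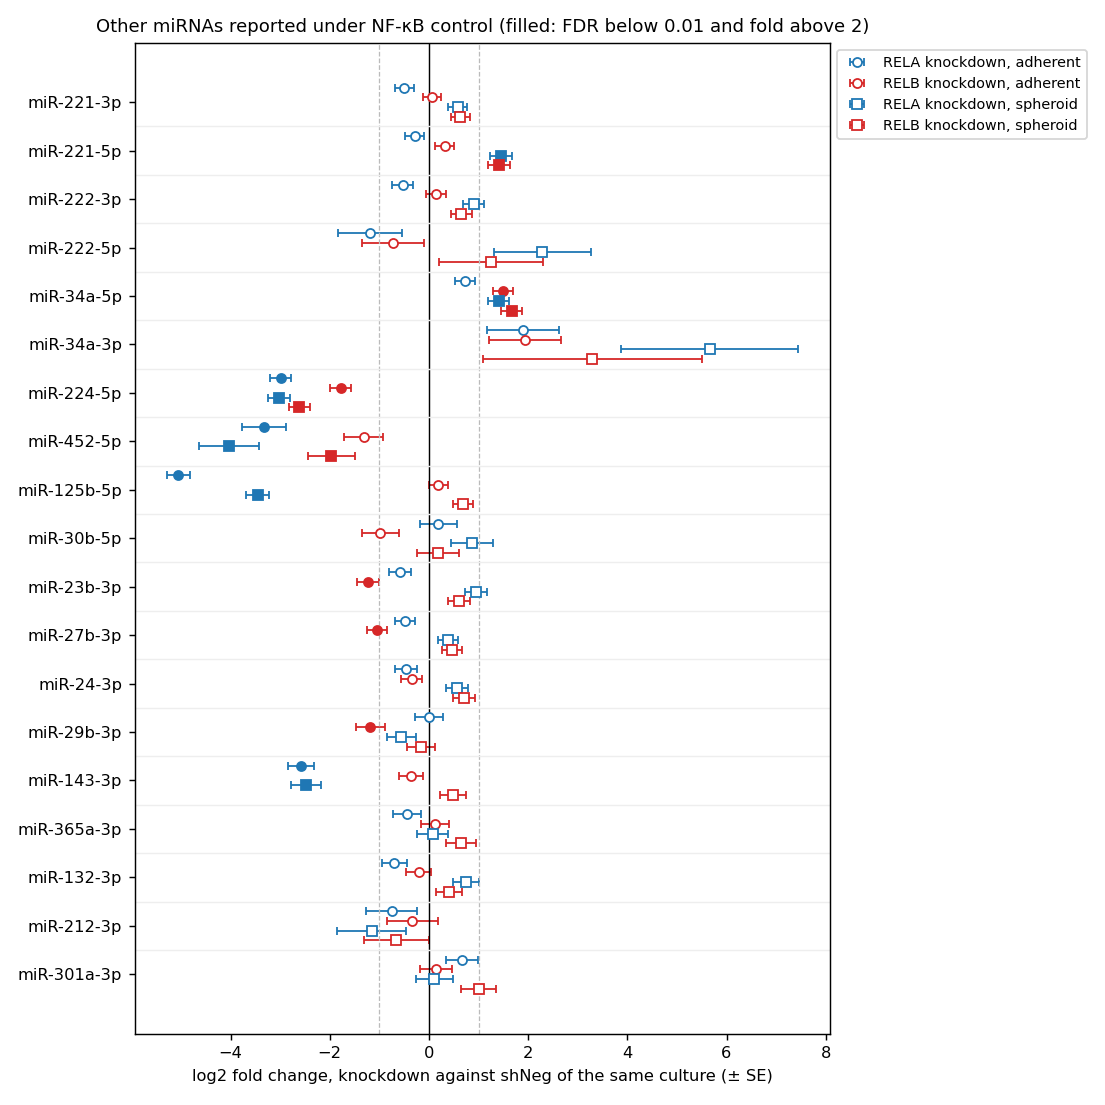
Log2 fold change of the 19 other miRNAs against shNeg of the same culture (horizontal axis, ± SE; dashed lines at a fold change of 2), with symbols as for the members (blue RELA, red RELB, circles adherent, squares spheroid, filled where called). miR-224-5p lay at -1.78 to -3.03 in all 4 comparisons, and miR-125b-5p lay at -5.05 and -3.45 with RELA depleted.

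The miRNAs whose log2(CPM + 1) followed each member most closely over the 24 libraries were taken from 328 candidates with a mean of at least 10 CPM, as a description of libraries that share depth and culture. For miR-155-5p they were miR-330-3p (Pearson r 0.880), miR-34a-5p (0.864) and miR-152-3p (0.859). For miR-146a-5p they were miR-363-3p (0.875), miR-302d-3p (0.871) and miR-199a-3p (0.852), and for miR-146b-5p miR-503-5p (0.814), miR-26b-5p (0.805) and miR-140-3p (0.803). miR-146b-3p was closest to miR-1293 (0.955), miR-574-3p (0.905) and miR-5187-5p (0.900), none of which was among those of its 5p arm. miR-21-5p was closest to miR-130a-3p (0.989), miR-186-5p (0.979) and miR-20a-5p (0.977), and miR-21-3p to miR-4521 (0.966), miR-130a-3p (0.956) and miR-31-5p (0.956). miR-9-5p was closest to miR-93-3p (0.937), miR-186-5p (0.931) and miR-126-3p (0.926).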

How the data were processed

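Small RNA from 24 OV90 libraries was prepared with a kit that adds unique molecular indices, sequenced as single-end reads, trimmed with Cutadapt and assigned to miRBase mature sequences with miRDeep2 by the authors. Whether reads were collapsed by index is not given in the sources used here. The deposited values were read as estimated counts per mature miRNA, not scaled, although the methods speak of CPM. This reading rests on totals that differ between libraries and on values that are mostly whole. Of the values above 0, 3.04% (84 miRNAs) had decimals and were rounded. All sample columns were mapped from their titles.

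edgeR 4.0.16 (R 4.3.3) was run with TMM scaling on the 905 miRNAs that reached 1 CPM in 4 or more libraries, as quasi-likelihood tests over all 6 groups in one fit, for 11 comparisons. A call needed an FDR below 0.01 and a fold change above 2, as in the study's methods. The common dispersion was 0.0888. Ratios used exact permutation tests with 0.5 added to each count. The script was tested on simulated data. Alternatives were other scalings, filters, an FDR of 0.05, DESeq2 1.42.0, limma 3.58.1, a likelihood ratio test, a replicate block, fewer groups and each library left out. The members and lists were chosen with earlier results of these data known. All members are named, with each called miRNA of the second list and the 3 closest in pattern to each member averaging at least 10 CPM. Floors cover counting error only. The intervals were built from the SE of the edgeR fit, so they also cover the spread between libraries, which may be technical.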

Additional observations from a re-analysis of the deposited data

Results flagged for a closer look

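The effect of depletion differed between cultures for miR-146a-5p and miR-146b-5p, each tested as an interaction in edgeR's quasi-likelihood fit. The log2 difference, spheroid effect minus adherent effect, was 1.35 for miR-146a-5p and 2.04 for miR-146b-5p with RELA depleted (FDR 0.000164 and 2.92e-05), and 1.28 and 2.11 with RELB depleted (FDR 0.000315 and 1.27e-05). Without spheroid shNeg replicate 1 the values were 1.27 and 2.03 for RELA and 1.19 and 2.10 for RELB. In the 48 groups of 4 libraries of the 8 members, no single library was far enough from the rest to pass Dixon's test.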

How the results depend on the processing

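Of 781 member values under other settings (leaving out a library aside), 720 kept their direction and side of the threshold, and 58 of 88 results did so under all of them. miR-155-5p was called higher in all 4 knockdown comparisons under each of them and with any library left out. The number of members called moved by over 1.5 times in these cases. For RELA in spheroids it was 2, not 1, in limma and with the replicate block, both of which called miR-9-5p (1.11 and 1.01). The block also lost miR-146b-3p for RELA in adherent cells (-1.10, FDR 0.0107), called miR-9-5p for culture under shRELB (-1.04) and changed no other call. Spheroid against adherent under shRELA it was 2 with library totals, 2 with a mean of at least 10 CPM and 3 with only the groups compared, not 5. For RELB against RELA in spheroids it was 1 with library totals and in limma, not 2, and for RELB by culture 1 with library totals and with a mean of at least 10 CPM, not 2. For RELB by culture it was 3 with no filter and at an FDR of 0.05. In the other comparisons it ran from 2 to 3 (RELA adherent, RELB adherent and RELA by culture), 3 to 4 (RELB spheroid and RELB against RELA adherent), 4 to 6 (culture, shNeg) and 2 to 4 (culture, shRELB). Values near 0 that changed sign, none of them called, were as follows. With library totals they were miR-21-3p for RELA adherent (-0.042), for RELB against RELA adherent (0.19) and for RELB by culture (-0.048), miR-21-5p for RELA by culture (-0.035), miR-146b-3p for RELB by culture (-0.11) and miR-146b-5p for culture under shRELA (0.00018). With no filter they were miR-21-3p for RELA (-0.017) and RELB adherent (-0.027), miR-146a-5p for culture under shRELA (-0.011) and shRELB (-0.11) and miR-9-3p for RELB by culture (0.0064). With a mean of at least 10 CPM they were miR-146b-5p for culture under shRELA (0.028) and shRELB (0.00098), miR-155-5p under shRELB (0.048) and miR-21-3p for RELB against RELA adherent (0.055). With only the groups compared they were miR-21-3p for RELB adherent (-0.066), miR-155-5p (0.073) and miR-146b-5p (0.057) for culture under shRELB and miR-9-3p for RELB by culture (0.00077). In limma they were miR-9-5p for RELB in spheroids (0.0063) and miR-9-3p for RELB by culture (0.41). The cause was not tested. Whether the replicate numbers pair the samples is not given in the sources used here, and the main fit did not pair them. Deviations of same-numbered libraries from their group mean correlated from -0.52 to 0.43 over 60 pairs. With 4 libraries per group this range cannot exclude pairing. With each library left out, the number of members called was 2 to 3 (RELA adherent, RELB adherent), 1 to 2 (RELA spheroid), 3 to 4 (RELB spheroid), 6 in all (culture, shNeg), 2 to 5 (shRELA), 3 to 4 (shRELB), 2 to 4 and 1 to 2 (RELB against RELA, adherent and spheroid) and 2 to 3 (both by culture). Values whose sign changed with a library left out, none of them called, ran from -0.053 to 0.19 (miR-21-3p, RELA adherent), -0.14 to 0.13 (miR-21-3p, RELB adherent), -0.19 to 0.082 (miR-21-3p, RELB against RELA adherent), -0.50 to 0.14 (miR-9-3p, RELA adherent), -0.43 to 0.31 (miR-9-3p, RELB by culture), -0.37 to 0.090 (miR-9-5p, RELB spheroid), -0.27 to 0.24 (miR-155-5p, culture under shRELA), and, for culture under shRELB, -0.16 to 0.22 (miR-146a-5p) and -0.41 to 0.097 (miR-146b-5p). In a fit added after the data were seen, without spheroid shNeg replicate 1, signs changed in the second list for miR-365a-3p (-0.15) and miR-301a-3p (-0.20) with RELA and miR-30b-5p (-0.21) with RELB depleted in spheroids. Depth limits miR-155-5p in spheroid shNeg, at 0 to 15 counts.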
